A study of Mus musculus with 6 samples.

Results

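A set of 10 genes that neutrophils are known for were followed through the terminal ileum of newborn mice with and without experimental necrotizing enterocolitis (NEC), a disease in which the gut wall of premature infants becomes inflamed and dies. The genes are the alarmins S100a8 and S100a9, the siderophore-binding lipocalin Lcn2, the specific-granule proteins Ngp, Camp and Ltf, the azurophil-granule enzymes Mpo and Elane, the secreted resistin-like protein Retnlg and the growth factor receptor Csf3r. The 10 genes were chosen by name as a known set and make up 10 of the 55487 gene identifiers in the table. All 10 had a row and a value in every library.

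The study has 6 RNA libraries of terminal ileum from C57BL/6 mice on postnatal day 9, 3 labelled NEC and 3 labelled control. In the NEC model of the labels, pups were gavaged with hyperosmolar formula made from Similac and Esbilac. They breathed 5% oxygen for 10 min, 3 times a day for 4 days, and were given lipopolysaccharide by mouth at 4 mg/kg per day on days 6 and 7. The series' design calls the controls normal mice, and how they were fed is not given in the labels, which carry the same treatment text on all 6 samples. No genotype or transgene is named. The model combines formula, hypoxia and lipopolysaccharide, so their separate parts cannot be told apart. Nothing in the labels states that a group's libraries are of separate animals, so p-values measure the spread between libraries, which may be technical. The libraries are of whole tissue, in which fewer cells of a type and less RNA per cell cannot be told apart.

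Neutrophils make their granule proteins in waves while they mature in the bone marrow. Azurophil enzymes such as myeloperoxidase and elastase come first, specific-granule proteins such as lactoferrin and cathelicidin follow, and the surface receptors of the mature cell come last. S100a8 and S100a9 pair into calprotectin, a metal-binding protein that fills the neutrophil cytosol and is measured in stool as a sign of gut inflammation. Lipocalin 2 is made by neutrophils and also by inflamed gut epithelium.

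S100a8 and S100a9 are neighbours on chromosome 3 and are transcribed toward each other, with 22596 bases between them, while Camp, Ngp and Ltf lie on chromosome 9. In the GENCODE annotation of the mouse build GRCm38, S100a8 spans chr3:90668978-90670035 on the forward strand and S100a9 spans chr3:90692632-90695721 on the reverse strand. Camp spans chr9:109847379-109849617 on the reverse strand and Ngp chr9:110419747-110423012 on the forward strand. These 4 genes shared the pattern described below, so the genomic stretch just before each start is shown, read 5′ to 3′ on the gene's strand from RefSeq's GRCm38.p6 promoter windows and limited to bases before both the RefSeq and the GENCODE start. Capitals mark a match to TTGCNNAA, the core of C/EBP sites, searched on both strands. C/EBP factors are known to drive granule genes.
S100a8: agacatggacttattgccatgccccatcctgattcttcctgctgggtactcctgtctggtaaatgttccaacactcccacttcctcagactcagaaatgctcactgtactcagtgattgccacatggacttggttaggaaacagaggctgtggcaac
S100a9: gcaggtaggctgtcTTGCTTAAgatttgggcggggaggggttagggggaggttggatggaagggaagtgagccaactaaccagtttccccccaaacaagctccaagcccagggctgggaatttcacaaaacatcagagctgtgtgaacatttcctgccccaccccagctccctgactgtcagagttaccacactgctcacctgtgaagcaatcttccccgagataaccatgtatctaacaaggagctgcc
Camp: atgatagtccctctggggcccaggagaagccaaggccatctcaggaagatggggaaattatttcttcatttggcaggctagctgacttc
Ngp: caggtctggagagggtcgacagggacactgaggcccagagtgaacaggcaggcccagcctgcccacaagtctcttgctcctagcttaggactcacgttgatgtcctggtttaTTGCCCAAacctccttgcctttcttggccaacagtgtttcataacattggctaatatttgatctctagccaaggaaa
The stretches are chr3:90668821-90668977 for S100a8, chr3:90695722-90695971 for S100a9, chr9:109849618-109849706 for Camp and chr9:110419558-110419746 for Ngp. S100a9 held TTGCTTAA 236 bases before the RefSeq start, and Ngp held TTGCCCAA 138 bases before it. The printed stretches of S100a8 and Camp held 0 matches. Over full windows of 300 bases, 5 of the 10 genes had a match (Lcn2, Ltf, Ngp, Retnlg and S100a9), and 10.8% of all 32851 promoter windows had one. A match is a description of the letters and not a measured site.

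Levels are in FPKM, which divides fragments by transcript length and by library size, so genes can be compared per length. By the mean of the 6 libraries, S100a8 was highest at 21.1 FPKM, then S100a9 at 15.5, Camp at 7.34, Retnlg at 5.91, Ngp at 3.01 and Ltf at 1.65. Lcn2 (0.939), Elane (0.403), Csf3r (0.318) and Mpo (0.0740) had means under 1 FPKM. Summed over the 10 genes, the level was 66.2, 67.9 and 61.3 FPKM in NEC 1, 2 and 3, and 9.12, 66.3 and 66.8 FPKM in control 1, 2 and 3. Control 1 was the only library set apart in this sum, and the other 5 spanned both groups.

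**Figure D1:**
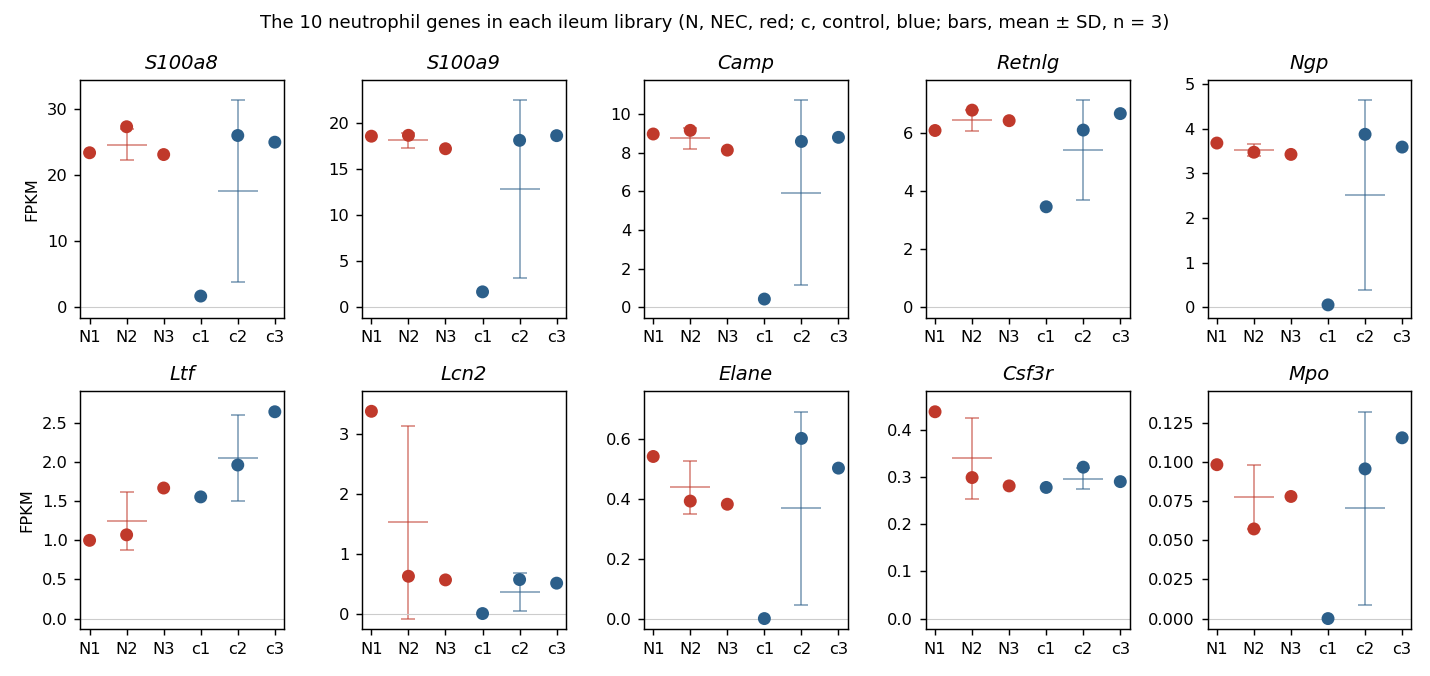
Level of each of the 10 neutrophil genes (y axis, FPKM, a scale of its own for each gene) in the 6 libraries (x axis: N, NEC, red; c, control, blue), with the group mean ± SD over 3 libraries. S100a8, S100a9, Camp and Ngp are level in 5 libraries and near 0 in control 1, whereas Lcn2 is high in NEC 1 alone.

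The alarmins were at the same level in NEC as in 2 of the 3 controls. S100a8 measured 23.4, 27.4 and 23.1 FPKM in NEC 1, 2 and 3, and 1.69, 26.0 and 25.02 FPKM in control 1, 2 and 3. Control 1 was low and the other 5 libraries overlapped between the groups, with a coefficient of variation of 7.10% over those 5. S100a9, the partner of S100a8 in calprotectin, measured 18.6, 18.7 and 17.2 FPKM in NEC and 1.67, 18.1 and 18.6 FPKM in control. It was again low in control 1 only, and its coefficient of variation over the other 5 libraries was 3.38%. Control 1 held 6.77% of the mean of the other 5 for S100a8 and 9.15% for S100a9.

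The group means followed that library. The S100a8 mean was 24.6 ± 2.36 FPKM over the 3 NEC libraries (SD, n = 3) and 17.6 ± 13.8 FPKM over the 3 controls. The S100a9 means were 18.2 ± 0.815 and 12.8 ± 9.66 FPKM. On the log2(FPKM + 1) scale, which understates the change of low genes, the NEC minus control difference was 1.05 (SE 0.86, 95% interval -0.99 to 3.09) for S100a8, with a Benjamini-Hochberg adjusted p of 0.355 in limma. It was 0.94 (SE 0.74, interval -0.83 to 2.71) for S100a9, with an adjusted p of 0.341 in limma. Without control 1 the difference was -0.05 for S100a8 (interval -0.37 to 0.26) and -0.02 for S100a9 (interval -0.29 to 0.26). With 3 libraries of NEC and 2 of control, those intervals are narrower than the ones from all 6. The limma adjusted p was then 0.778 for S100a8, against 0.225 to 0.902 over its 16 alternative settings.

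With the shorter of its transcripts, S100a8 rested on about 193 to 242 fragments in those libraries and on about 12.9 in control 1. S100a9 rested on about 142 to 174 fragments in the same 5 libraries and on about 13.4 in control 1. Whole fragments could not be assigned here because each gene has transcripts of differing length.

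The ratio of the alarmins to each other stayed in a narrow band in the 5 level libraries. S100a8 to S100a9 was 1.26, 1.46 and 1.34 in NEC 1, 2 and 3, and 1.44 and 1.34 in control 2 and 3. In control 1, where both were low, it was 1.01.

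Among the specific-granule genes, Camp and Ngp followed the alarmins and Ltf did not. Camp encodes cathelicidin, an antimicrobial peptide precursor, and measured 8.96, 9.15 and 8.13 FPKM in NEC and 0.422, 8.58 and 8.79 FPKM in control. These correspond to 115, 126 and 115 fragments in NEC and to 5, 99 and 108 in control, of which the 5 in control 1 have a 95% Poisson interval of 1.62 to 11.7 (counting error only). Control 1 was again the only low library. The difference was 0.93 (SE 0.72, limma adjusted p = 0.330 by Benjamini-Hochberg), and 0.01 without control 1 (interval -0.29 to 0.30).

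Ngp encodes neutrophilic granule protein, a relative of the cathelicidins and cystatins. It measured 3.67, 3.47 and 3.42 FPKM in NEC and 0.0524, 3.87 and 3.59 FPKM in control. Control 1 held a single fragment (95% Poisson interval 0.0253 to 5.57), and the other libraries held 71 to 78. The difference was 0.66 (SE 0.57, limma adjusted p = 0.379 by Benjamini-Hochberg), and -0.06 without control 1 (interval -0.37 to 0.24).

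Ltf, the iron-binding lactoferrin, had another order. It measured 1.0, 1.07 and 1.67 FPKM in NEC and 1.56, 1.96 and 2.64 FPKM in control. NEC 1 was lowest and control 3 highest, and NEC 3 lay above control 1, so the groups overlapped. The Ltf mean ± SD over 3 libraries was 1.25 ± 0.368 FPKM for NEC and 2.05 ± 0.550 FPKM for control. The difference was -0.44 (SE 0.18, interval -0.87 to -0.01, limma adjusted p = 0.0942 by Benjamini-Hochberg). Without NEC 3 it was -0.57 and passed the threshold with a limma adjusted p of 0.0486, the only call of any of the 10 genes under any setting run. Over the 15 alternative settings that gave it a value, the adjusted p ranged from 0.0486 to 0.801. TMM scaling, which centres the libraries on the bulk of the genes, moved it to -0.23 (limma adjusted p = 0.311), and quantile normalization to -0.06.

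Retnlg, a resistin-like protein made by myeloid cells, was lower in control 1 by a smaller margin than the alarmins. It measured 6.08, 6.78 and 6.42 FPKM in NEC and 3.45, 6.09 and 6.66 FPKM in control. Those values rest on 61, 73 and 71 fragments in NEC and on 32, 55 and 64 in control. Control 1 held 53.9% of the mean of the other 5, which overlapped between the groups. The difference was 0.25 (SE 0.21, limma adjusted p = 0.362 by Benjamini-Hochberg) and 0.01 without control 1. TMM scaling gave 0.54 with a limma adjusted p of 0.0926, the smallest of its 16 alternatives, the largest being 0.961.

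The library pattern of S100a8 was thus not that of Retnlg. The ratio of S100a8 to Retnlg was 3.85, 4.04 and 3.61 in NEC and 4.27 and 3.76 in control 2 and 3, and it was 0.490 in control 1. The ratio of S100a8 to Ngp was 6.37 to 7.89 in those 5 libraries and 32.3 in control 1, where Ngp rested on 1 fragment.

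**Figure D2:**
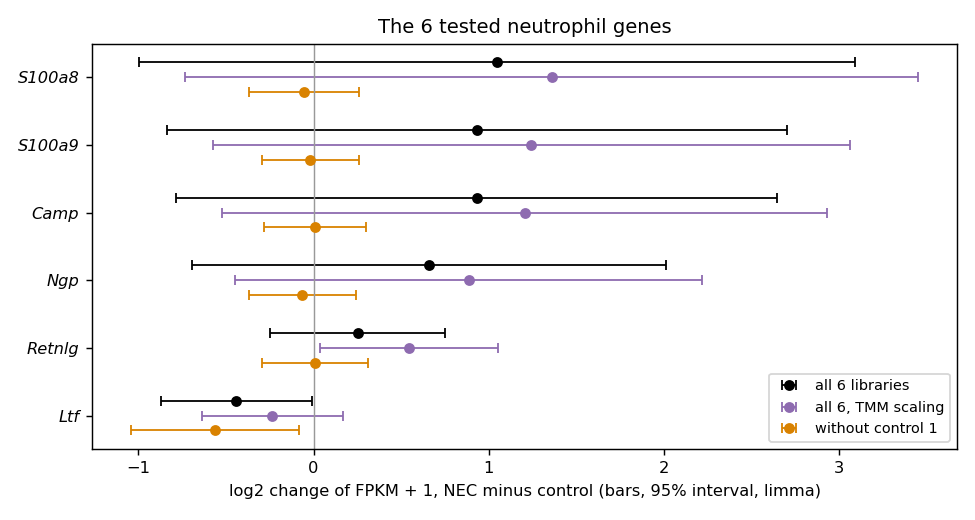
Difference between NEC and control (x axis, log2(FPKM + 1) scale) with 95% intervals from limma for the 6 tested neutrophil genes (y axis), using all 6 libraries, all 6 with TMM scaling, or 5 without control 1. The wide intervals of S100a8, S100a9, Camp and Ngp shrink around 0 when control 1 is left out.

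The 4 remaining genes were low in every library apart from Lcn2 in NEC 1. None had a mean of 1 FPKM over the 6 libraries, the level needed for the test, so their values below come from the fit without that filter. Elane, neutrophil elastase, measured 0.540, 0.392 and 0.381 FPKM in NEC and 0, 0.601 and 0.502 FPKM in control. These were 9, 7 and 7 fragments in NEC and 0, 9 and 8 in control, and 3 fragments would be 0.195 FPKM in control 1. Mpo, myeloperoxidase, measured 0.0982, 0.0572 and 0.0779 FPKM in NEC and 0, 0.0955 and 0.115 FPKM in control, and an antisense gene, Gm11505, overlaps it. Csf3r, the receptor for granulocyte colony-stimulating factor, measured 0.439, 0.299 and 0.282 FPKM in NEC and 0.278, 0.321 and 0.291 FPKM in control. Differences were 0.10 for Elane (limma adjusted p = 0.718 by Benjamini-Hochberg), 0.01 for Mpo (0.884) and 0.05 for Csf3r (0.645), and the groups overlapped for each.

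Lcn2 was high in NEC 1 alone. It measured 3.38, 0.622 and 0.562 FPKM in NEC and 0, 0.567 and 0.507 FPKM in control. NEC 1 was 5.70 times the mean of NEC 2 and 3, and control 1 was listed at 0. The remaining 4 libraries, of both groups, lay between 0.507 and 0.622 FPKM. The Lcn2 mean ± SD over 3 libraries was 1.52 ± 1.61 FPKM for NEC and 0.358 ± 0.311 FPKM for control. The difference without the filter was 0.74 (limma adjusted p = 0.286 by Benjamini-Hochberg).

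Of the 10 genes, 6 reached the test, and limma called 0 higher and 0 lower at an adjusted p under 0.05. Over all 15806 genes tested, 7.69% were called higher, 30.6% lower and 38.2% in either direction. At an unadjusted p under 0.05 in limma, 1 of the 6 passed, Ltf. The groups overlapped in all 10 genes, whereas 59.1% of all genes tested had groups that did not overlap. The median difference of the 6 was 0.79, beside -0.26 over all tested genes. TMM scaling moved those medians to 1.05 and 0.00, with 0 calls among the 6. Without control 1 the median of the neutrophil genes then tested, Lcn2 included, was -0.02, beside -0.25 over all genes.

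Across all genes, control 1 was not an unusual library by depth. Fragments per library, estimated from the steps in the values of single-transcript genes, ran from 15.2 to 18.7 M, with 15.6 M in control 1. Genes at 1 FPKM or more numbered 13461 to 14882 in NEC and 16290 to 16702 in control, with 16585 in control 1. In NEC 1 a larger share of all FPKM was on 7SL RNA (Rn7s1, 42.7%) than in the other libraries (27.3% to 32.2%).

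Yet control 1 was the lowest of the 6 libraries for 9 of the 10 neutrophil genes. Among the 15774 annotated genes averaging 1 FPKM or more, control 1 was the single lowest library for 7.78%, and NEC 1 was for 8837 genes. Lcn2, Elane, Csf3r and Mpo average less than that level, so this background does not cover them. Protein-coding genes at 1 FPKM or more in the other 5 libraries, and under 20% of the lowest of those in a given library, numbered 22 in control 1, 41 in NEC 1, 3 and 4 in NEC 2 and 3, and 1 and 2 in control 2 and 3. The 22 genes in control 1 include S100a8, S100a9, Camp and Ngp, and 0 of the 10 neutrophil genes are among those of any other library.

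Many lung epithelial genes, though not all, had the same library pattern. A list of 26 such genes, written after these values were seen, holds 13 of the 22 genes. Control 1 was the lowest library for 22 of the 26, and the summed level of the list was 121 FPKM in control 1, 413 to 562 in NEC and 363 to 397 in control 2 and 3. Of that sum, Slc34a2 alone held 131, 240 and 243 FPKM in NEC and 79.4, 74.4 and 72.0 FPKM in control 1, 2 and 3. Slc34a2 was not lowest in control 1, so the list sum does not follow the other genes alone. Cyp4b1, Hopx and Rtkn2 were not lowest there either. Abca3 and Napsa were, but still held 82.7% and 69.2% of the mean of the other 5 libraries. Scgb1a1, the secretoglobin of airway club cells, measured 191, 218 and 175 FPKM in NEC and 11.2, 217 and 196 FPKM in control. Sftpc, surfactant protein C of alveolar cells, measured 32.2, 34.4 and 29.9 FPKM in NEC and 0.817, 37.4 and 31.9 FPKM in control. Both were low in control 1 only, and over the other 5 libraries the groups overlapped. Sftpb, Sftpd, Cyp2f2, Bpifa1 and Sec14l3 were listed at 0 in control 1 and at 1.12 FPKM or more in every other library, and 0 of the 26 were at 0 in all libraries. Of 18 list genes tested, limma called 2 higher (Slc34a2 and Abca3) and 0 lower.

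S100a8 moved with Scgb1a1 over all 6 libraries. Their ratio was 0.123, 0.125 and 0.132 in NEC and 0.152, 0.120 and 0.128 in control. The ratio of S100a8 to Sftpc was 0.697 to 0.795 in the 5 level libraries and 2.07 in control 1. The part of lung epithelial RNA in the result on the neutrophil genes was not tested.

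**Figure D3:**
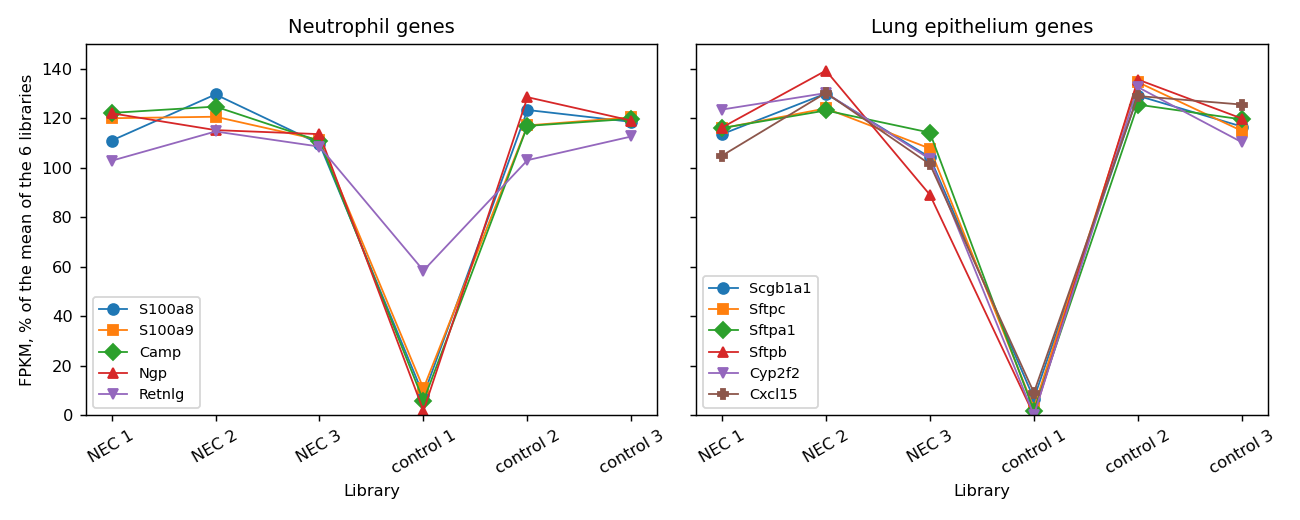
Level in each library (x axis) as a percentage of the gene's mean over the 6 libraries (y axis) for 5 neutrophil genes (left) and 6 lung epithelial genes (right). Each line is a gene, and apart from Retnlg the lines of both panels fall to 0 to 10.8% in control 1. The 6 lung genes shown are among the 22 of 26 list genes that were lowest in control 1.

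The protein-coding genes most like each neutrophil gene were ranked by the root mean square difference of mean-centred log2(FPKM + 1) values over the 6 libraries, among 11730 genes. Nearest to S100a9 was Camp (0.03), followed by S100a8 (0.17) and Sftpa1, surfactant protein A (0.22). Nearest to S100a8 were S100a9 (0.17), Camp (0.20) and Scgb1a1 (0.29). Nearest to Ngp were Sftpa1 (0.07), the club cell cytochrome Cyp2f2 (0.09) and Sftpb (0.14). The closest to Camp were S100a9 (0.03), Sftpa1 (0.19) and S100a8 (0.20). The closest to Ltf were Fmc1, Tecr and Dedd (all 0.08), and the closest to Retnlg were Hsbp1 (0.07), Slc35f6 (0.09) and Fbxl6 (0.11). The points share 6 libraries, so these figures are descriptions.

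Of 20 further granule proteins, 11 were tested, 1 was called higher and 3 lower, with a median difference of 0.14. Against 38.2% of all tested genes called in either direction, that share is near the background. TMM scaling gave 3 higher and 1 lower with a median of 0.40, and without control 1 there were 1 higher and 0 lower with a median of -0.07. Serpinb1a, an inhibitor of the granule proteases, rose by 1.0 (limma adjusted p = 0.00655 by Benjamini-Hochberg), with 206, 184 and 148 FPKM in NEC and 92.7, 83.6 and 89.5 in control. Its groups did not overlap, and the call held in all 16 alternatives. Pglyrp1, a peptidoglycan-binding granule protein, fell by 0.55 (limma adjusted p = 0.0179), and Anxa1 by 0.95 (0.0279), both lost under TMM scaling. Olfm4, a specific-granule protein and also a marker of intestinal crypt cells, fell by 1.67 (0.0282), a call lost in 5 of 16 alternatives, among them without NEC 2 and without each control.

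Several granule genes that were not called were low in control 1. Chil3 measured 1.05 FPKM there and 3.46 to 4.05 FPKM in the others, and Hp, haptoglobin, measured 0.162 there. Control 1 was lowest for 8 of the 20 genes. The azurophil proteases Prtn3 and Ctsg were at 0.0362 to 0.316 FPKM and at 0 to 0.126 FPKM.

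Among genes of the mature neutrophil surface, Ly6g and Cxcr2 were near 0. Ly6g, the surface antigen that defines mouse neutrophils, measured 0, 0.172 and 0.0839 FPKM in NEC and 0, 0.103 and 0.145 FPKM in control. Cxcr2, the receptor for neutrophil-attracting chemokines, measured 0.112, 0.115 and 0.0814 FPKM in NEC and 0, 0.0624 and 0.0937 FPKM in control. For both, the groups overlapped. Of 22 surface and chemotaxis genes, 7 were tested, 1 was called higher and 1 lower, or 2 and 0 with TMM scaling. Over all tested genes, 38.2% were called in either direction. Ltb4r1, the leukotriene B4 receptor, rose by 0.71 (limma adjusted p = 0.0288 by Benjamini-Hochberg), a call lost in 5 of 15 alternatives, among them without NEC 1, NEC 2, control 2 or control 3. The integrin chain Itgb2 fell by 0.39 (0.0468), a call lost in 13 of 15 alternatives, TMM scaling among them. Itgam, the partner chain of Itgb2, measured 1.39, 1.47 and 1.25 FPKM in NEC and 0.941, 0.611 and 0.942 in control. Those groups did not overlap, and the difference of 0.38 had a limma adjusted p of 0.0533 (0.0137 to 0.179 over its alternatives).

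Ligands that draw neutrophils were mostly below the level tested. Of 20 ligands and adhesion molecules, 4 were tested, 1 was called higher and 0 lower, beside 38.2% of all tested genes called in either direction. Il1a, an alarmin cytokine, rose by 1.35 (limma adjusted p = 0.0122 by Benjamini-Hochberg), with 2.87, 1.98 and 0.923 FPKM in NEC and 0.0649, 0.0665 and 0.188 in control. Its groups did not overlap, and the call was lost in 2 of 12 alternatives, without control 1 and without control 2. Il1a reached the level tested, with a mean of 1.02 FPKM over the 6 libraries, only through its NEC values. The related cytokine Il1b measured 0.854, 0.796 and 0.592 FPKM in NEC and 0.218, 0.531 and 0.656 in control, so its groups overlapped. The chemokines Cxcl1, Cxcl2 and Cxcl5 were at most 0.469 FPKM in every library. Csf3, the ligand of Csf3r, was above 0 only in NEC 1 (0.251 FPKM) and control 3 (0.0873), and Il17a was at 0 in all 6.

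**Figure D4:**
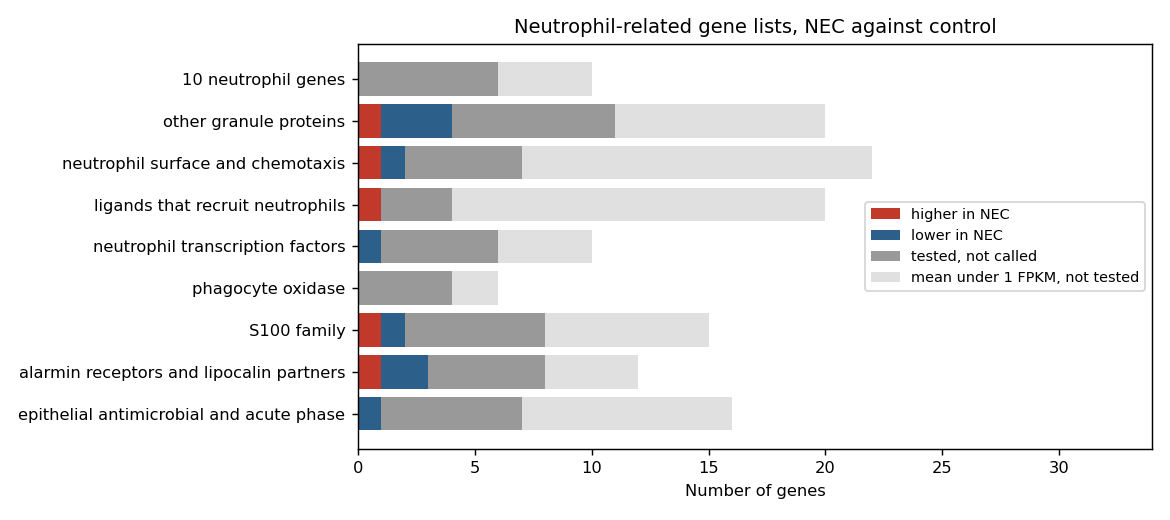
Number of genes (x axis) called higher in NEC, called lower, tested but not called, or below a mean of 1 FPKM, for the 10 neutrophil genes and 8 related lists (y axis). The 10 neutrophil genes have 0 calls, and each related list has at most 4.

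Genes that control granule gene transcription and genes of the oxidase are set beside the 38.2% of all tested genes called in either direction. Too few of them were tested to tell their shares from that one. Of 10 transcription factors, 6 were tested, 0 were called higher and 1 lower. That gene was Myb, a factor of early blood progenitors, which fell by 0.69 (limma adjusted p = 0.0186 by Benjamini-Hochberg). The Myb call was lost under quantile normalization and without each of the 3 controls, and TMM scaling gave 1 factor higher and 1 lower. Of 6 subunits of the phagocyte oxidase, which makes superoxide, 4 were tested, with 0 calls in either direction.

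The other S100 genes and the receptors of the alarmins had calls in both directions, at shares no higher than the 38.2% of all tested genes. Of 15 other S100 genes, 8 were tested, with 1 called higher and 1 lower, or 2 and 1 with TMM scaling. S100a10, an annexin-binding member, rose by 1.25 (limma adjusted p = 0.00982 by Benjamini-Hochberg), with 288, 183 and 162 FPKM in NEC and 81.9, 87.6 and 87.1 in control. S100g, the calbindin of calcium-absorbing enterocytes, fell by 1.43 (0.0147), a call lost without control 1 or control 2. Among 12 receptors and partners, 8 were tested, with 1 called higher and 2 lower.

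Lrp2, the endocytic receptor megalin that takes up lipocalin 2, fell by 1.85 (limma adjusted p = 0.00475 by Benjamini-Hochberg), and Slc22a17, a lipocalin 2 receptor, fell by 0.82 (0.0123). Ticam1, an adaptor of Tlr4, rose by 0.46 (0.0113). The calls of Slc22a17 and Ticam1 were lost without control 1 or control 2, and that of Lrp2 was kept in every alternative that tested it. Tlr4, the lipopolysaccharide receptor that calprotectin can also engage, measured 0.638, 0.130 and 0.127 FPKM in NEC and 1.38, 0.875 and 1.83 in control, lower in every NEC library and below the level tested. Ager, another receptor of S100 proteins and also a gene of alveolar epithelium, differed by 0.00 (limma adjusted p = 0.988), with 0.498 FPKM in control 1 and 0.879 to 1.38 in the others.

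Of 16 epithelial antimicrobial and acute-phase genes, 9 were highest in NEC 1, as Lcn2 was, and 3 were lowest there. Among all genes averaging 1 FPKM or more, NEC 1 was highest for 11.7% and lowest for 8837 of 15774. Reg3a, Nos2, Duox2, Duoxa2, Saa1 and Saa2 were highest in NEC 1 but average less than that level, so this background does not cover them. Of the 7 list genes that reached it, Reg3b, Reg3g and Saa3 were highest in NEC 1. Saa3, serum amyloid A3, measured 14.3, 0.468 and 0.316 FPKM in NEC and 0.189, 0.150 and 0.202 in control. Reg3g, a bactericidal lectin of the gut epithelium, measured 109, 1.60 and 13.7 FPKM in NEC and 2.48, 1.96 and 1.84 in control. Both were highest in NEC 1. For Saa3 every NEC library lay above every control, though it was not called (limma adjusted p = 0.250 by Benjamini-Hochberg). For Reg3g, NEC 2 lay below every control.

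Nos2, inducible nitric oxide synthase, measured 2.33 FPKM in NEC 1 and 0.351 to 0.716 in the other libraries. Reg3b was at 249 and 156 FPKM in NEC 1 and 3 but at 4.83 in NEC 2, below the controls (26.5 to 36.1). Protein-coding genes at 1 FPKM or more and over 3 times every other library numbered 128 in NEC 1, Lcn2 among them, and 1 to 9 in each other library. Interferon-induced genes outside the lists, picked after their values were seen, are among the 128: Ifit1 measured 299.6 FPKM in NEC 1 and 18.1 to 52.8 in the others, and Rsad2, Isg15 and Cxcl10 are there too. Their part in the Lcn2 value was not tested. Of the 16 antimicrobial and acute-phase genes, 7 were tested, 0 were called higher and 1 lower, Ang4 (fell by 1.75, limma adjusted p = 0.00692 by Benjamini-Hochberg).

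**Figure D5:**
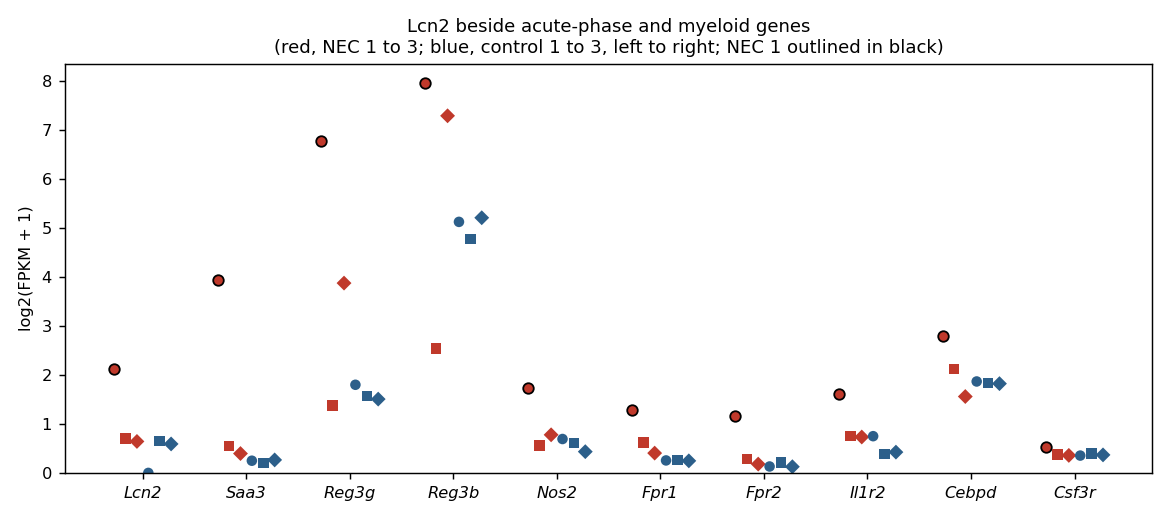
Level of Lcn2 and of 9 acute-phase, receptor and myeloid genes (x axis) in each library (y axis, log2(FPKM + 1)), with NEC in red, control in blue and NEC 1 outlined. NEC 1 is the highest point for each gene, at 3.38 FPKM for Lcn2 and 14.3 for Saa3.

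Myeloid genes in NEC 1 gave a mixed account. The formyl peptide receptors Fpr1 and Fpr2 measured 1.43 and 1.23 FPKM in NEC 1 and at most 0.541 and 0.218 in the other libraries. The decoy receptor Il1r2 measured 2.07 FPKM in NEC 1 and at most 0.683 elsewhere. Fpr1, Fpr2, Il1r2 and the plotted Cebpd were picked after their values were seen. S100a8, S100a9 and Camp in NEC 1 lay between their values in NEC 3 and NEC 2, and Ngp measured 3.67 FPKM in NEC 1 against 3.47 and 3.42.

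Markers of other cell types had calls in the NEC comparison, in which 30.6% of all tested genes were called lower. Of 5 pan-leukocyte genes, all tested, 0 were called higher and 2 lower (Coro1a and Laptm5), and their sum was 6.68 to 10.5 FPKM in NEC and 12.9 to 19.2 in control. Ptprc, the leukocyte antigen CD45, was not called (difference -0.54, limma adjusted p = 0.0555 by Benjamini-Hochberg). Of 8 tested macrophage genes, 3 were called lower (Adgre1, C1qa and C1qb), and C1qa, C1qb and Laptm5 lost their calls under TMM scaling. TMM scaling gave 2 macrophage genes higher and 1 lower, and quantile normalization and leaving out control 1 each gave 0 calls. The macrophage list summed to 103 to 149 FPKM in NEC and 95.9 to 106 in control, and without Plac8 alone to 45.4 to 50.3 in NEC and 55.9 to 58.7 in control. Mast cell genes summed to 2.51 to 3.21 FPKM in NEC and 6.22 to 8.15 in control, with Kit called lower and Fcer1a at 0 in all libraries. Kit alone made up most of that sum, at 2.44 to 3.06 FPKM in NEC and 5.57 to 7.07 in control, and it was the only gene of the list tested. The eosinophil peroxidase gene Epx was at 0 in all libraries, and the eosinophil list summed to 2.10 to 2.48 FPKM in NEC and 1.24 to 3.52 in control. Lymphocyte genes summed to 0.862 to 2.27 FPKM in NEC and 2.58 to 4.63 in control, with 0 of 9 tested. Erythroid genes summed to 233 to 252 FPKM in NEC and 547 to 813 in control, and 4 of 5 tested fell. The part of these markers in the neutrophil values was not tested.

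The tissue label was set against its markers. Epcam and Cdh1, which mark epithelium, were high in both groups, and the epithelial list summed to 1189 to 1452 FPKM in NEC and 1008 to 1109 in control. Fabp6, a bile acid binding protein of the terminal ileum, measured 0.123, 0 and 10.4 FPKM in NEC and 1.20, 1.23 and 2.45 in control. The other ileum genes went different ways. Slc51b rose by 1.98 (limma adjusted p = 0.00968 by Benjamini-Hochberg), Fgf15 fell by 2.14 (0.00519) and Slc10a2 was not called. The calls of Slc51b and Fgf15 held in every alternative that tested them. Fabp1, higher in the upper small intestine, rose by 6.42 (limma adjusted p = 0.000585 by Benjamini-Hochberg), with 70.6 to 194 FPKM in NEC and 0.232 to 0.781 in control. Gata4, a factor of the upper small intestine, rose by 2.67 (0.00224). Stroma and muscle genes summed to 168, 585 and 638 FPKM in NEC and 911 to 1096 in control, lowest in NEC 1, the library with the high Lcn2. Of the tested genes, limma called 1 of 6 epithelial genes higher (Vil1), 1 of 4 ileum genes higher and 1 lower, 2 of 3 upper intestine genes higher and 1 lower, 3 of 6 stroma genes and 2 of 4 endothelial genes lower, and 1 of 2 pancreas and liver genes higher and 1 lower. With TMM scaling the stroma list had 2 lower and the endothelial list 1 higher and 1 lower, and without control 1 the stroma list had 0 calls. Cybrd1, the upper intestine gene called lower, lost its call in 9 of 15 alternatives. Whether these differences in marker genes bear on the neutrophil genes was not tested.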

How the data were processed

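Terminal ileum RNA was measured in 3 NEC and 3 control libraries. Per the labels' protocols, total RNA with an integrity number above 7 went into paired-end TruSeq libraries. Per the submitters' processing notes, the reads went through HISAT2, SAMtools 1.3.1 and Cuffdiff on mm10. Annotation and strand setting are not given in the sources used here. No unit stands in the header. The deposited values were taken as the authors' FPKM, because 98.7% to 99.0% of values under 20 fragments in single-transcript genes were whole fragments within 0.03. GENCODE M21 gave symbols for 55141 of 55487 identifiers, and RefSeq's GRCm38.p6 windows covered all 10 genes.

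Genes averaging 1 FPKM or more were compared with limma 3.58.1 (R 4.3.3, mean-variance trend, group only) on log2(FPKM + 1), with Benjamini-Hochberg adjustment over all tested genes and a threshold of 0.05. The procedure was tested on simulated data. An exact permutation test of 3 against 3 cannot go below p = 0.1 and was not used. The settings varied were the pseudocount (0.1, 0.01), the filter (none, or 5 FPKM), TMM scaling (unweighted, trimming 30% of log ratios and 5% of levels), quantile normalization, a replicate block, weights per sample, no trend, and leaving out each library in turn. Leaving out NEC 1 with control 1 was added after seeing the data.

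The 10 genes, the related lists and the naming rule were chosen with earlier results of these data known. The rule names the 10 genes, called genes of each list (at most 6, by p), the 3 nearest genes by library profile, and always Prtn3, Ctsg, Ly6g, Cxcr2, Itgam, Csf3, Cxcl1, Cxcl2, Cxcl5, Il1b, Il17a, Tlr4, Ager, Reg3b, Reg3g, Saa3, Nos2, Ptprc and Adgre1. Some called genes of the marker lists are given only in counts. Other named genes, the lung list among them, were chosen after their values were seen.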

Additional observations from a re-analysis of the deposited data

How the results depend on the processing

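Among the 10 neutrophil genes, 0 were called higher in every setting run, and 0 were called lower except without NEC 3, where Ltf was (0 to 1 when a library is left out). The positive differences of 5 genes rested on control 1: Retnlg went from 0.25 to 0.00939 without it. Leaving out libraries gave -0.0527 (without control 1) to 1.61 for S100a8, -0.0340 to 1.42 for S100a9, -0.0883 to 1.04 for Ngp and -0.00854 to 1.40 for Camp. The lowest of the last 3 came without both NEC 1 and control 1, a choice made after seeing the data, which gave -0.0194 for S100a8. Without control 1 alone, S100a9 was at -0.0178 and Ngp at -0.0641. Ager turned to 0.0463 and 0.0642 with pseudocounts of 0.1 and 0.01, 0.17 with TMM scaling, 0.35 with quantile normalization and 0.0385 with sample weights, and ranged from -0.24 to 0.0461 (without NEC 3) with libraries left out. Reg3b turned to -0.83 with sample weights and -0.0767 without NEC 1 and control 1, and ranged from -0.12 (without NEC 1) to 2.59 (without NEC 2); the cause was not tested. All tested genes called higher numbered 1215, against 2638 with TMM scaling and 2202 with quantile normalization, and 471 to 1566 when a library is left out (471 without control 2, 499 without control 1, 663 without control 3, 795 without NEC 2). Genes called lower numbered 4829, against 1746 with a mean of at least 5 FPKM, which tests fewer genes, 2252 with TMM scaling and 2387 with quantile normalization, and 917 to 5378 when a library is left out (917 without control 2, 1049 without control 1, 1979 without control 3, 2991 without NEC 2). Of 37 called genes of the related and marker lists, 16 kept their call in every alternative that tested them and 21 lost it in at least 1.

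Nothing in the labels pairs libraries by replicate number. Same-numbered NEC and control libraries had deviations from their group means correlated across genes at -0.05, -0.01 and -0.07. Deviations within each group sum to 0, so these correlations cannot exclude a weak pairing. With the replicate number as a block, 856 genes were called higher and 3230 lower, and 0 of the neutrophil genes in either direction. In control 1, Ngp, Camp and Elane rest on 1, 5 and 0 fragments, so differences among such low values were not detectable at this depth.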
